A study of Mus musculus with 6 samples.

Results

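Histone genes fall into a clustered replication-dependent set and a set of variant genes, most of them outside the clusters. Both were measured here by RNA sequencing of mouse hippocampus. Members were taken by gene name, as every gene of the deposited table that carries a histone name, with genes marked as pseudogenes by a "-ps" ending left out. This gave 83 genes of 33385 in the table, of which 66 are clustered genes and 17 are variant genes. All 6 libraries come from mice whose Bcas2 gene, which encodes a subunit of the PRP19 splicing complex, is flanked by target sites of the Cre recombinase (Bcas2F/F). The knockdown group (n = 3) was injected with AAV2/9-Syn-cre, an adeno-associated virus in which the synapsin promoter confines Cre largely to neurons, and the control group (n = 3) with AAV-vehicle. The labels call the groups Bcas2 knockdown and WT, although both carry the floxed gene, and they give no age, sex or batch.

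In textbook terms, clustered histone genes supply the core histones H2A, H2B, H3 and H4 and the linker histone H1 that package newly copied DNA, and they are transcribed mainly in S phase. Their messengers are the well-known exception among protein-coding transcripts, since they end in a conserved stem-loop bound by SLBP in place of a poly(A) tail. Variant genes have introns or ordinary polyadenylated messengers in most cases, are transcribed throughout the cell cycle, and supply chromatin in cells that no longer divide, such as neurons. Some clustered genes also make longer polyadenylated messengers, above all in differentiated tissue. The libraries were selected on poly(A), so the values below for clustered genes hold whatever part of their messengers that selection kept.

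The stem-loop is shown first because it separates the classes at the level of sequence. The letters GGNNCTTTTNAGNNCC, searched on the transcript's own strand, were found in an annotated transcript of 43 of the 66 clustered genes and of 1 of the 17 variant genes. Over all genes of the GENCODE M21 annotation, 89 of 55450 (0.161%) held them. The most frequent form, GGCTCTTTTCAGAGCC, occurred in 26 members. In the lines below, the stem-loop is in capitals with up to 7 bases on either side, written as DNA and taken from the GENCODE M21 transcripts. The first 4 lines are the clustered genes with a match that had the highest mean levels. An H4 gene, an H3 gene and H2bc12, whose transcript stops shortly after the loop, follow, and H2ax is the only variant gene with a match.
H2bc27: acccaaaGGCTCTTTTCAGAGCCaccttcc
H2ac25: caccaaaGGCTCTTTTCAGAGCCacccaca
H1f2: tccaaaaGGCTCTTTTCAGAGCCaccactc
H2bc8: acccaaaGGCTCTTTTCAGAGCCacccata
H4c9: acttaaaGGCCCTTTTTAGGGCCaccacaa
H3c15: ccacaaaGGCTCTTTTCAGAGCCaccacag
H2bc12: caccaaaGGCTCTTTTAAGAGCCactaaac
H2ax: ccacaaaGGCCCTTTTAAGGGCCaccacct

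How far the annotated transcript runs past the stem-loop differed widely between clustered genes. In 22 of them the annotated transcript ended within 100 bases of the loop, at 3 to 74 bases after it. In 21 it ran on for 151 to 4884 bases, and 9 of these had AATAAA, the usual poly(A) signal, in their last 50 bases, against 1 of the 22 short ones. Mean FPKM over the 6 libraries (a level per length and depth) had a median of 0.536 in the genes that run on and 0.104 in those that stop. A mean of at least 1 FPKM was reached by 7 of the 21 and by 3 of the 22. A further 11 genes were annotated with their coding part alone, so a loop could not be found there, and 12 had no match to these letters.

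**Figure D1:**
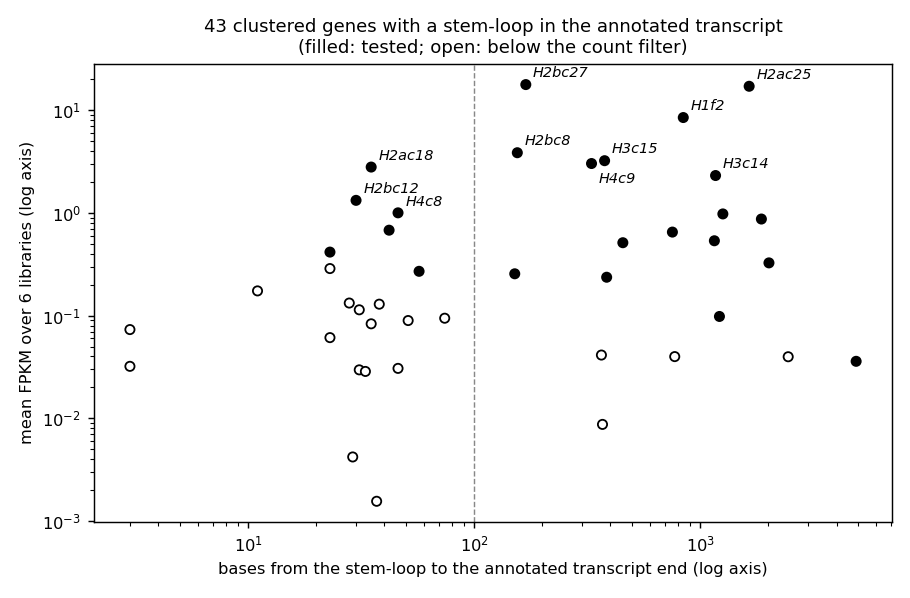
Mean FPKM over 6 libraries (log axis) against the number of bases from the stem-loop to the annotated transcript end (log axis) for the 43 clustered genes with a stem-loop; filled points were tested and open points lay below the count filter. The dashed line marks 100 bases: H2bc27, H2ac25 and H1f2, the highest of the plotted genes, lie to its right, and most open points lie to its left.

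The libraries held 55914768 to 76481458 deposited counts each, with hippocampal neuron markers at a summed 1139 to 1300 FPKM in all of them. Bcas2 was at 9.04 ± 0.151 FPKM (SD, n = 3) in the knockdown group and 9.68 ± 0.216 FPKM (SD, n = 3) in the controls, each knockdown library below each control, with an edgeR adjusted p of 0.861. Control replicate 3 stood apart by its choroid plexus transcripts, a summed 4388 FPKM over 13 marker genes against 5.20 to 18.4 FPKM elsewhere. Control replicates 2 and 3 alone had Y-linked counts, and the other 4 libraries had 0. Xist, the RNA of the inactive X chromosome, was at 49.5, 58.6 and 46.8 FPKM in the knockdown libraries. In control replicates 1, 2 and 3 it was at 43.9, 0.00137 and 0.0213 FPKM. By these transcripts the knockdown libraries and control replicate 1 are female, and control replicates 2 and 3 are male. Sex is therefore partly confounded with group in every comparison below. In bulk tissue, fewer cells of a type and less RNA per cell cannot be told apart.

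The 10 variant genes above 5 FPKM differed little between the groups, while most clustered genes were at lower values in the knockdown libraries, above all against control replicates 1 and 3. Of the 4 variant genes at lower levels, H3f5, H3f4 and H3f3aos had fold changes as negative as those of many clustered genes, at mean levels of 0.698, 0.407 and 0.211 FPKM. Neither difference was called for any single gene. Of the 83 members, 46 passed the filter on low counts, 32 clustered and 14 variant, and edgeR's quasi-likelihood test called 0 of the 46 at an adjusted p under 0.05, where 0% of all 20946 tested genes were called. DESeq2 also called 0 members, and 0.353% of all genes. It gave no adjusted p to 5725 of the 20946 genes, H4c12 and H2ac8 among them, and such genes could not be called. At an unadjusted edgeR p under 0.05 there were 9 of the 32 clustered genes, all with negative log2 fold changes, and 0 of the 14 variant genes. Of all tested genes 6.19% were at such a p, and 3.16% in the negative direction. The median log2 fold change (knockdown minus control) was -0.64 over the 32 clustered genes and -0.03 over the 14 variant genes, beside -0.0005 over all tested genes. Negative fold changes were found for 28 of 32 clustered and 9 of 14 variant genes, against 50.1% of all tested genes. No test compares the classes, since their members are not independent of each other.

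**Figure D2:**
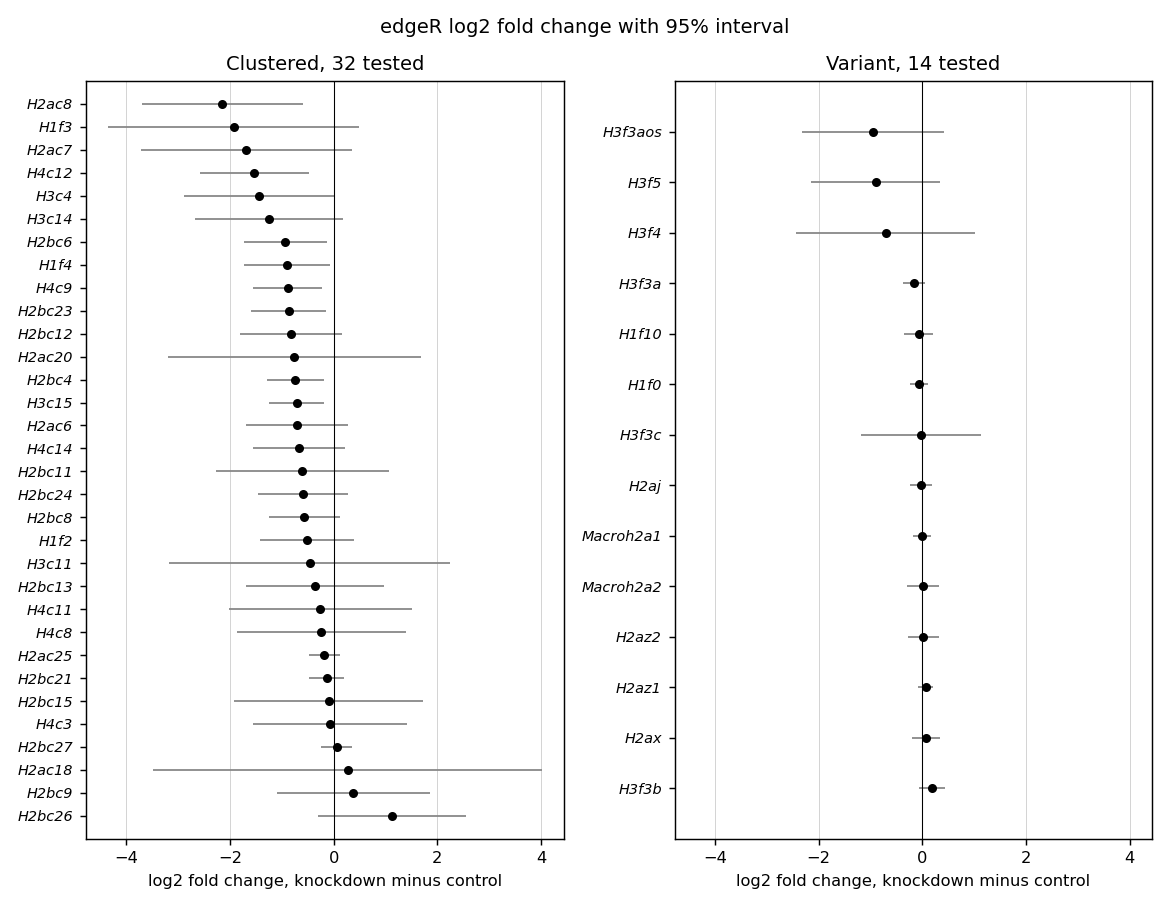
edgeR log2 fold change, knockdown minus control, with its 95% interval, for the 32 clustered and the 14 variant genes that were tested. Clustered genes spread from -2.14 (H2ac8) to 1.13 (H2bc26) around a median of -0.64, and the 10 variant genes above 5 FPKM lie between -0.16 and 0.19; no gene passed the adjusted threshold.

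Summed over all members, the clustered genes reached 78.1, 80.7 and 74.0 FPKM in the knockdown libraries and 108, 88.4 and 122 FPKM in the controls. All knockdown sums were below the lowest control sum, and control replicate 2 was the nearest. The group means were 77.6 ± 3.40 and 106 ± 16.9 FPKM (SD, n = 3 each), so the knockdown level was 73.1% of control. The variant genes summed to 226, 239 and 221 FPKM against 237, 223 and 232 FPKM, which is 99.1% of control with overlapping groups. The clustered share of histone FPKM was 25.1% to 25.7% under knockdown, below the control range of 28.4% to 34.4%. A library's sum rests on few genes, as H2bc27, H2ac25 and H2bc4 had the highest means.

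**Figure D3:**
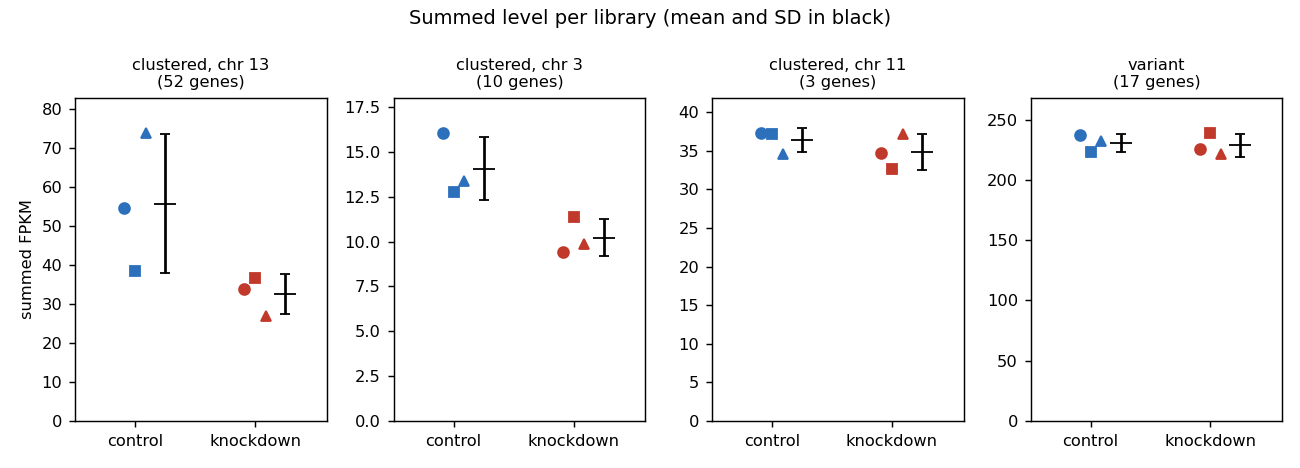
Summed FPKM per library for the clustered genes of chromosomes 13, 3 and 11 and for the variant genes, with the mean and SD (n = 3) in black; marker shapes are the replicate numbers. The groups do not overlap on chromosomes 13 and 3, where control replicate 3 (chromosome 13) and control replicate 1 (chromosome 3) are highest, and they overlap on chromosome 11 and for the variant genes.

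Among linker histones, the variant H1f0, which encodes the H1.0 protein of non-dividing cells, was abundant and even. Its level was 33.7, 33.9 and 30.9 FPKM in the knockdown libraries and 32.9, 37.0 and 34.8 FPKM in the controls (log2 fold change -0.06, SE 0.0719, edgeR adjusted p = 0.886). H1f10, another linker variant outside the clusters, was at 20.5, 16.7 and 16.8 FPKM against 20.997, 17.8 and 18.7 FPKM, with overlapping groups (-0.07, SE 0.120). The clustered gene H1f2, which encodes H1.2, was at 6.55, 9.97 and 4.27 FPKM against 6.58, 8.35 and 15.4 FPKM. Only control replicate 3 stood above the knockdown range, and the log2 fold change of -0.51 (SE 0.389) was -0.08 without it. H1f4, the H1.4 gene, was at 0.286 to 0.520 FPKM against 0.564 to 0.867 FPKM, without overlap of the groups (-0.90, SE 0.355, adjusted p = 0.792). Its position overlaps H2bc6 and Gm11398, and 19.5% of its 150-base runs occur in them, so its value is uncertain. All 3 clustered H1 genes tested had negative fold changes, with a median of -0.90, which was -0.45 without control replicate 3. H1f1, H1f3 and H1f5 had means of 0.0345, 0.0359 and 0.132 FPKM, and of these only H1f3 was tested (-1.93, SE 1.04). It had 63 counts in control replicate 3 and 4 to 20 in each other library. The oocyte linker histone gene H1f8 and the spermatid gene H1f9 had at most 4 counts over all libraries.

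Among the H2A variants, H2az1, H2aj and Macroh2a1 varied least from library to library. H2az1 and H2az2 encode the H2A.Z proteins, which mark promoters, and they were at means of 34.2 and 11.5 FPKM. H2az1 lay between 33.0 and 35.2 FPKM in all 6 libraries, with a log2 fold change of 0.06 (95% interval -0.08 to 0.21). H2az2 was at 11.7, 12.05 and 10.7 FPKM against 12.1, 9.67 and 12.7 FPKM, a log2 fold change of 0.02 (SE 0.130). H2ax encodes the H2A.X protein that is phosphorylated around DNA breaks, and its transcript runs on for 822 bases past the loop shown above. It was at 22.0, 22.8 and 21.9 FPKM in the knockdown libraries and at 24.98, 19.5 and 19.96 FPKM in the controls, with the controls on both sides of the knockdown range (0.07, SE 0.114). H2aj, a single H2A gene outside the main clusters, was at 11.9 to 13.5 FPKM in all libraries (-0.02, SE 0.0926). Macroh2a1 and Macroh2a2, whose proteins carry a macrodomain and are enriched on the inactive X chromosome, had means of 8.15 and 6.34 FPKM and log2 fold changes of -0.01 (SE 0.0733) and 0.01 (SE 0.131).

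Clustered H2A genes were at far lower levels, with 1 exception. H2ac25, at chromosome 11 positions 58845511 to 58847656 of GRCm39, was at 17.04, 12.96 and 17.9 FPKM in the knockdown libraries and 19.6, 18.0 and 17.4 FPKM in the controls. Its groups overlapped (-0.18, SE 0.128), it shares 28.0% of its 150-base runs with Trim17, and it overlaps that gene in the table. Of the 17 clustered H2A genes, only H2ac25 and H2ac18 had a mean of at least 1 FPKM. H2ac18 was listed at 0 in knockdown replicate 1 and control replicate 3 and at 2.57 to 5.70 FPKM in the other 4 libraries, and 87.0% of its 150-base runs also occur in other genes, H2ac19 among them, so its value is uncertain. The smallest p among clustered H2A genes was that of H2ac8, named here after its values were seen, at 0.105, 0.0422 and 0.101 FPKM against 0.407, 0.317 and 0.561 FPKM. Every control was above every knockdown library, on 2 to 25 counts a library (-2.14, SE 0.661, adjusted p = 0.792).

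H2B has no variant gene among the members, and its clustered genes included some of the highest. H2bc4, at chromosome 13 positions 23868182 to 23876891 of GRCm39, was at 12.6, 10.98 and 8.93 FPKM in the knockdown libraries. In the controls it was at 18.0, 13.1 and 24.3 FPKM, so the groups did not overlap, but control replicate 2 was only just above the highest knockdown library. The log2 fold change was -0.74 (SE 0.236, 95% interval -1.30 to -0.19, adjusted p = 0.792), and -0.50 without control replicate 3. H2bc8, whose loop is shown above, was at 3.06, 3.47 and 2.71 FPKM against 5.38, 3.01 and 5.56 FPKM. Control replicates 1 and 3 were above all knockdown libraries and control replicate 2 was among them (-0.57, SE 0.291). H2bc12 followed the same order, at 1.01, 0.717 and 1.08 FPKM against 1.83, 1.07 and 2.26 FPKM (-0.83, SE 0.421). Of the 150-base runs, 39.0% in H2bc8 and 60.9% in H2bc12 occur in other genes, each other and H2bc4 included. The split of reads between them is uncertain, so their like order may not be separate observations.

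Some other H2B genes did not follow that pattern. H2bc27, the highest clustered gene, was at 16.4, 19.0 and 18.7 FPKM against 17.5, 18.7 and 16.7 FPKM, a log2 fold change of 0.06 (95% interval -0.25 to 0.36). H2bc21, whose annotated transcript of 2620 bases has no match to the loop letters and holds AATAAA in its last 50 bases, was at 2.34, 2.13 and 2.29 FPKM against 2.36, 2.63 and 2.58 FPKM. Its groups did not overlap, yet the difference was small (-0.14, SE 0.144). H2bc26, named after its values were seen, was at 0.579 to 1.34 FPKM against 0.251 to 0.524 FPKM (1.13, SE 0.609), on 8 to 35 counts a library. It was the only clustered gene tested that was higher in every knockdown library. Of all tested genes, 5.47% had groups without overlap in that direction.

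For H3, the variant genes H3f3a and H3f3b encode the same protein, H3.3, which is placed in chromatin outside replication, and they had opposite signs. H3f3b, the most abundant member, was at 42.2, 56.2 and 49.1 FPKM in the knockdown libraries and 45.2, 42.9 and 43.7 FPKM in the controls (0.19, SE 0.107). H3f3a was at 30.3, 33.8 and 30.1 FPKM against 36.2, 31.9 and 38.7 FPKM (-0.16, SE 0.0901). The groups overlapped for both, and both had an adjusted p of 0.816 in edgeR. For H3f3b, leaving out knockdown replicate 2 gave 0.07 and leaving out knockdown replicate 1 gave 0.29, and the H3f3a value was -0.10 without control replicate 3. H3f3c and H3f5, typed as processed pseudogenes in the table, were at means of 1.22 and 0.698 FPKM (-0.03, SE 0.494, and -0.89, SE 0.531), and H3f5 was the only one of the 14 variant genes whose groups did not overlap, where 7.5% of all tested genes had such groups with the knockdown libraries below. H3f4, classed as a variant by its name although it lies beside the chromosome 11 cluster, had a mean of 0.407 FPKM (-0.71, SE 0.737). H3f3aos, an antisense RNA that the naming rule also took, had a mean of 0.211 FPKM (-0.95, SE 0.585).

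Only 2 of the 12 clustered H3 genes had a mean of at least 1 FPKM. H3c15 was at 3.02, 1.87 and 2.38 FPKM against 4.06, 3.81 and 4.26 FPKM, and here all 3 controls, control replicate 2 included, were clear of the knockdown libraries (-0.71, SE 0.227, adjusted p = 0.792). H3c14 was at 2.57, 0.409 and 1.06 FPKM against 2.63, 2.38 and 4.86 FPKM, with overlapping groups (-1.25, SE 0.608). Leaving out knockdown replicate 1 gave -2.12 and leaving out knockdown replicate 2 gave -0.83. All of the 150-base runs of H3c14 and 59.4% of those of H3c15 occur in other genes, each other included, so the split of reads between them is uncertain.

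H4 has no variant gene among the members. H4c9 was at 2.30, 2.43 and 1.57 FPKM against 4.12, 3.00 and 4.80 FPKM, with no overlap (-0.89, SE 0.284, adjusted p = 0.792). H4c12 had the smallest p of all members, 0.0105 before adjustment. It was at 1.39, 0.990 and 0.893 FPKM against 4.43, 1.81 and 3.51 FPKM, with every control above every knockdown library (-1.53, SE 0.449, adjusted p = 0.792). The annotated transcript of H4c12 is its coding part alone, and 53.4% of its 150-base runs occur in other H4 genes, so its value is uncertain. H4c8 was at 0.509 to 1.55 FPKM against 0.331 to 1.55 FPKM (-0.24, SE 0.697), and its fold change was 0.08 without control replicate 1. H4c14 was at 0.516 to 1.16 FPKM against 0.922 to 1.44 FPKM (-0.67, SE 0.379). All 6 clustered H4 genes tested had negative fold changes, with a median of -0.46.

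**Figure D4:**
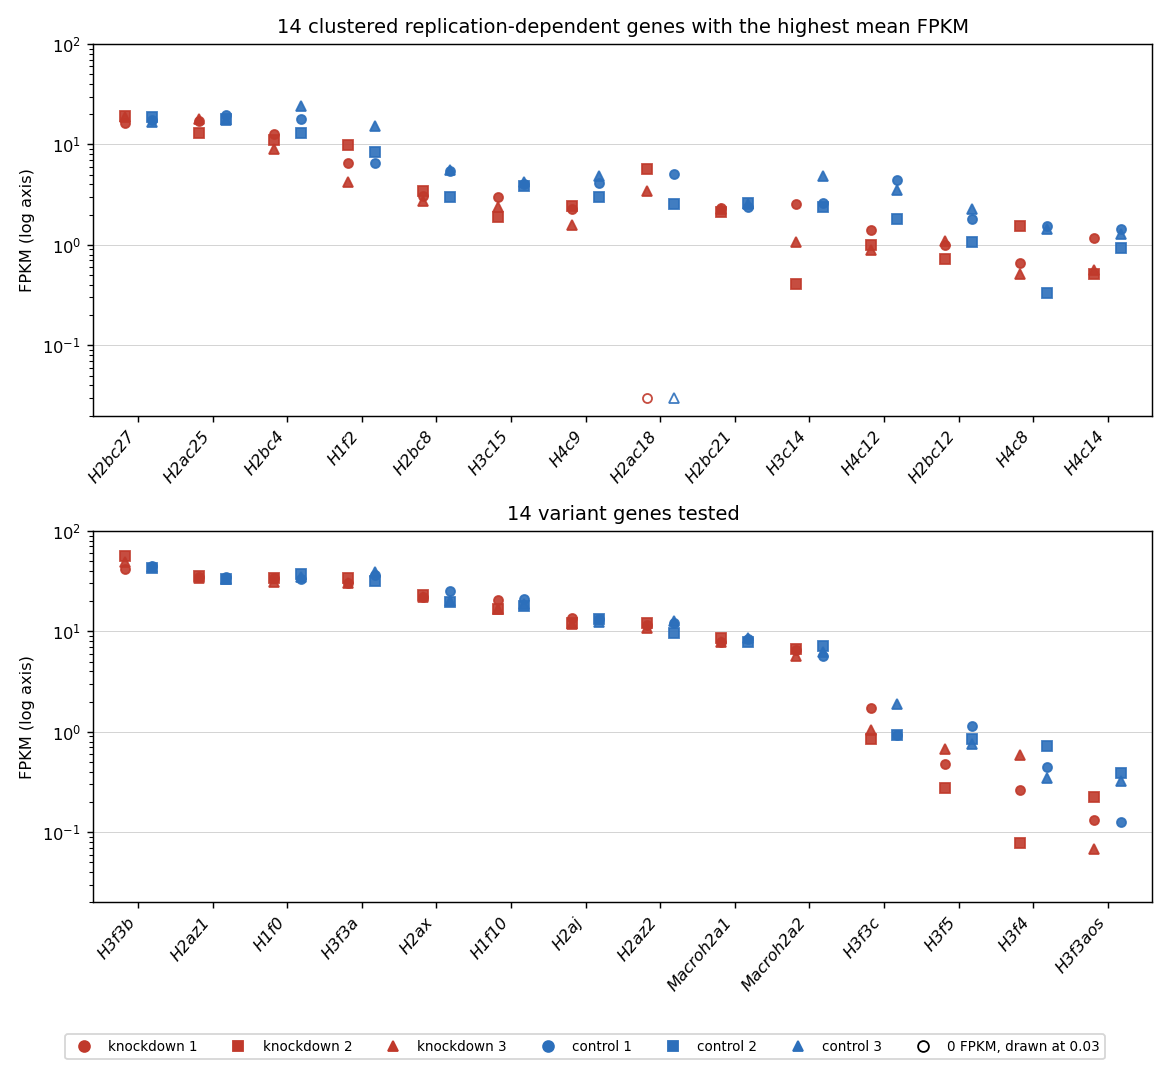
FPKM (log axis) in each library for the 14 clustered genes with the highest mean and for the 14 variant genes tested; red is knockdown, blue is control, marker shapes are replicate numbers, and open symbols at 0.03 are values listed at 0. For H2bc4, H3c15, H4c9 and H4c12 all blue points lie above all red ones, while for the 10 most abundant variant genes they intermingle.

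By location, the clusters of chromosomes 13 and 3 had sums below control in every knockdown library. For chromosome 13, which holds 52 of the clustered genes, the knockdown sums were 33.9, 36.7 and 26.9 FPKM and the control sums 54.7, 38.5 and 74.0 FPKM. That is 58.4% of control, with control replicate 2 just above the knockdown libraries, and 22 of its 23 tested genes had negative fold changes. The 10 genes of chromosome 3 summed to 9.44, 11.4 and 9.86 FPKM against 16.1, 12.8 and 13.4 FPKM, 72.6% of control, with 5 of 6 tested genes negative. The 3 genes of chromosome 11 summed to 34.7, 32.6 and 37.2 FPKM against 37.4, 37.2 and 34.6 FPKM, 95.8% of control with overlapping groups. The single gene of chromosome 6, H4c16, had a mean of 0.0398 FPKM and was not tested.

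The remaining clustered genes were near the floor. Of the 34 that did not pass the filter, none had more than 63 counts over all libraries, and 30 had at least 1 library at 0. Mean FPKM was lower in the knockdown group for 24 of these 34 and higher for 10, and over all 66 clustered genes for 52 and 14. The 3 variant genes not tested, H1f8, H1f9 and Macroh2a3, had at most 4 counts.

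The controls did not behave alike. For each tested member the deviation of its log2 CPM from its own mean was taken, and the median over the 32 clustered genes was -0.22, -0.27 and -0.21 in the knockdown libraries and 0.52, -0.12 and 0.73 in control replicates 1, 2 and 3. The knockdown libraries were close together, control replicate 2 was just above them, and the other controls were far above. Control replicate 3 exceeded every knockdown library for 26 of the 32 genes (31% of all tested genes), control replicate 1 for 24 (27.7%) and control replicate 2 for 11 (28.8%). The groups did not overlap, with the knockdown libraries below, for 10 of the 32, against 7.5% of all tested genes. Without control replicate 2 this count was 22, against 15.4% of all genes. For the 14 variant genes the same median lay between -0.08 and 0.05 in every library.

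Some other measures were also high in control replicates 1 and 3, and others were not. RNAs that carry no poly(A) tail, such as the 7SK and 7SL RNAs, summed to 4.03, 7.46 and 4.21 FPKM over the 19 listed genes in the table in the knockdown libraries. They summed to 12.4, 1.42 and 15.4 FPKM in control replicates 1, 2 and 3. Control replicates 1 and 3, high for clustered histones, were high here also, but control replicate 2 was below every knockdown library. Most of the high sums came from Rn7sk, Rn7s1 and Rn7s2, at 3.00, 4.23 and 4.08 FPKM in control replicate 1. Some members went the other way, such as Snord17 at 0.417, 0.244 and 0.244 FPKM under knockdown against 0.102, 0 and 0.106 FPKM. Of the 19, 4 were at 0 in all but at most 1 library. Only 3 of them were tested, at log2 fold changes of -1.01 (Rn7sk), -1.12 (Rn7s1) and -1.19 (Rn7s2), each with an adjusted p above 0.81. Their part in the result was not tested. Ependymal genes, all 10 of them tested and negative (median -1.06), summed to 9.53, 14.2 and 16.04 FPKM in the knockdown libraries and 30.6, 10.3 and 39.5 FPKM in control replicates 1, 2 and 3, again high in the libraries high for clustered histones, and their part was not tested. Meningeal genes summed to 24.4 to 62.7 FPKM against 29.1, 61.3 and 117 FPKM. Choroid plexus transcripts were high only in control replicate 3, and without that library the clustered median was -0.45, with 25 of 33 tested genes negative. In the 4 libraries without Y-linked counts, of which control replicate 1 is the only control, the clustered median was -0.73. Myelin genes, all 15 of them tested and with negative fold changes (median -0.59), had a summed level of 755 to 777 FPKM under knockdown. In control replicates 1, 2 and 3 they summed to 1445, 1015 and 938 FPKM, an order that differs from that of the histones. Their part was not tested. Over the 13 mitochondrially encoded genes the log2 fold changes were all positive, with a median of 0.18.

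**Figure D5:**
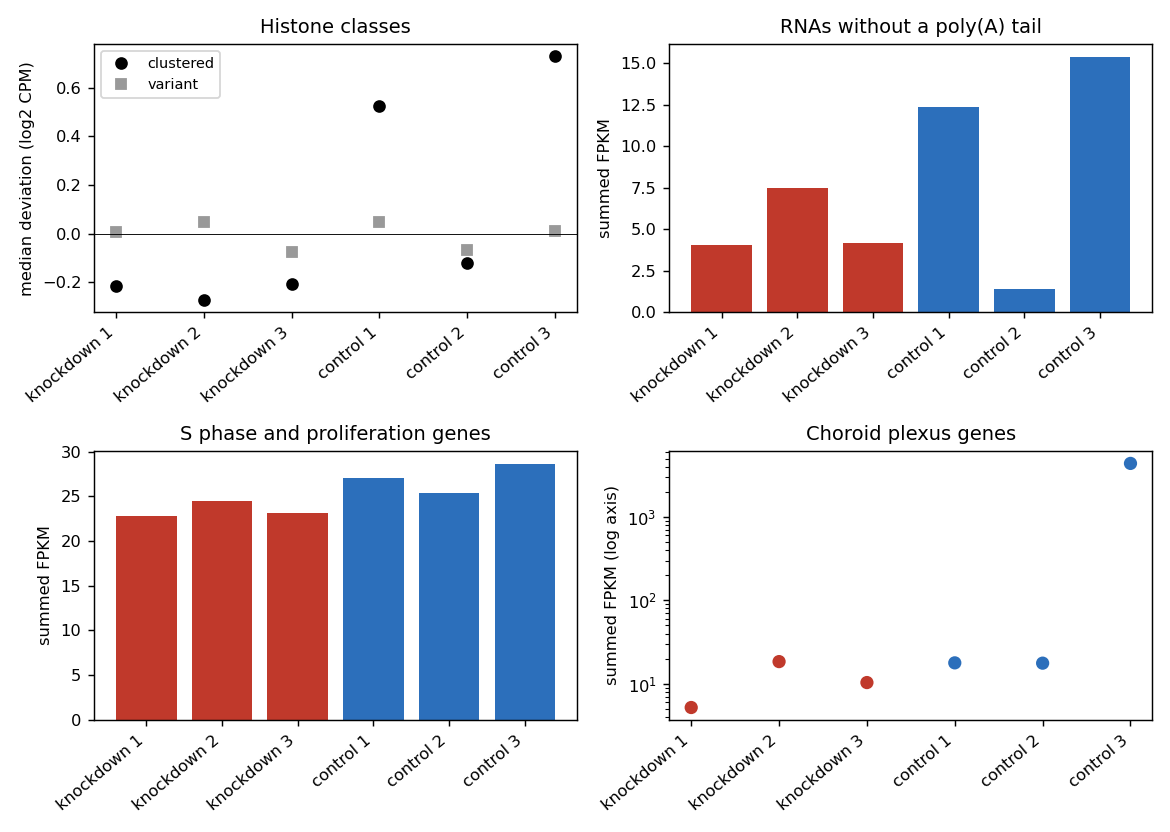
Per library, the median deviation in log2 CPM of the 32 clustered and 14 variant genes from each gene's mean, and the summed FPKM of RNAs without a poly(A) tail, of S phase and proliferation genes, and of choroid plexus genes (log axis). Control replicates 1 and 3 are highest for clustered histones (0.52 and 0.73) and for RNAs without a poly(A) tail (12.4 and 15.4 FPKM), and control replicate 3 alone is high for choroid plexus genes.

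Genes of S phase, when clustered histones are made, were at somewhat lower values as well. The 19 listed genes had a summed level of 22.8 to 24.5 FPKM under knockdown and 25.4 to 28.6 FPKM in the controls, without overlap. None of the 19 passed even an unadjusted p under 0.05. Log2 fold changes were negative for 14 and positive for 5, up to 0.31 for Ccna2, with a median of -0.30. Rrm2, a subunit of the enzyme that makes deoxyribonucleotides, had 0.303 ± 0.213 against 0.641 ± 0.0998 FPKM (SD, n = 3 each; -1.05, SE 0.478, adjusted p = 0.792 in edgeR). The kinetochore gene Cenpf (-0.80, SE 0.371) and the mitotic kinase gene Cdk1 (-1.07, SE 0.563) were below 0.2 FPKM in every library.

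Genes that make, process and place histones gave no call. Of the 22 listed genes for 3′ end formation and turnover of histone messengers, 15 had positive and 7 negative log2 fold changes, with a median of 0.08. SLBP binds the stem-loop, and Slbp was at 3.02 to 3.19 FPKM in all 6 libraries (0.05, SE 0.0892). Lsm10 and Lsm11 are specific to the U7 particle that cuts these messengers. Lsm11 was at 7.16 ± 1.36 against 5.68 ± 0.527 FPKM (0.36, SE 0.149) and Lsm10 at 3.88 ± 0.287 against 3.13 ± 0.346 FPKM (0.34, SE 0.192), SD with n = 3 each. Snrpd3, a core protein shared with other snRNPs, had a log2 fold change of 0.28 (SE 0.115). Among 12 genes of histone gene transcription, 7 were negative and 5 positive (median -0.06). Npat, the coactivator at the clusters, had 0.14 (SE 0.0915), Ccne1, the cyclin E1 gene, 0.38 (SE 0.137) and Gon4l 0.15 (SE 0.0802). Among 25 chaperone and exchange genes, 14 were negative and 11 positive (median -0.02). The H2A and H2B chaperone gene Nap1l2 had 0.24 (SE 0.0796), and Vps72 and Ruvbl2, of the complexes that insert H2A.Z, had -0.15 (SE 0.0826) and -0.21 (SE 0.119). Each of these genes had an adjusted p of at least 0.792 in edgeR.

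Promoter letters were counted in both classes, as a description. RefSeq windows of GRCm38.p6, from 250 bases before to 50 bases after the start, matched 57 clustered and 13 variant genes. TATAAA, searched on both strands as were all 4 motifs, none of which contains another, was present in 33 of 57 clustered and 2 of 13 variant windows, against 15.7% of 27025 genes. CCAAT was present in 49 of 57 and 9 of 13 (41.1% of genes), and in all 46 windows of clustered H1, H2A, H2B and H3 genes but only 3 of 11 of H4 genes. The octamer ATTTGCAT was present in 7 of 15 H2B and 5 of 16 H2A windows and in 0 of the other 26 clustered windows, and in 1 of 13 variant windows, that of H3f3b (1.97% of genes). GGGCGG was present in 22 of 57 and 7 of 13 (38.2%). H2A and H2B genes that face away from each other 175 to 301 bases apart have overlapping windows, so 1 motif can count for both. Motif content did not follow class in every gene, and 3 windows are shown for that reason. They are those of H2bc8 (GRCm38.p6, chr13:23571150-23571449, plus strand), a clustered gene, of H2az1 (GRCm38.p6, chr3:137864237-137864536, plus strand), a variant gene, and of H3f3b (GRCm38.p6, chr11:116024455-116024754, minus strand), the most abundant variant gene, with the 4 motifs of either strand in capitals.
H2bc8: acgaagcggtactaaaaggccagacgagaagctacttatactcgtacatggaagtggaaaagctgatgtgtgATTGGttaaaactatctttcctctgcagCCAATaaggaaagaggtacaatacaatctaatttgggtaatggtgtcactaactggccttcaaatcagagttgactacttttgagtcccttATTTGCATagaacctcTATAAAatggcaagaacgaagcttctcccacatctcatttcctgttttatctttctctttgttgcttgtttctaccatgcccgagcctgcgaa
H2az1: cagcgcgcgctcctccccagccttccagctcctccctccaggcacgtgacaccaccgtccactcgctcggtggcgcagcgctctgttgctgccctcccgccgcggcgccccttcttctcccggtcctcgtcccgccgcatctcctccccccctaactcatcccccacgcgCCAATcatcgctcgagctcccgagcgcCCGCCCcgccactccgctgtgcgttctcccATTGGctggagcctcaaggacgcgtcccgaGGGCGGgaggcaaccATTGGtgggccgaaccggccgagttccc
H3f3b: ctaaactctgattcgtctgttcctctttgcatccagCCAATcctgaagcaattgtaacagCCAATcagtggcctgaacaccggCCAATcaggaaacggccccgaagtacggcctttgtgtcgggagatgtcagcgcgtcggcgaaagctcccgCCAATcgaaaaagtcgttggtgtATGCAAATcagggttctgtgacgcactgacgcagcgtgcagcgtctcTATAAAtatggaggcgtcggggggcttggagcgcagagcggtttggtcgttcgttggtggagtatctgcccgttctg
In H2bc8 the octamer and TATAAA begin at positions -59 and -43 from the start, and in H2az1 neither is present. The variant H3f3b has both, the octamer as ATGCAAAT on the other strand at -74 and TATAAA at -27, while the window of the clustered gene H3c15 has neither.

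H2bc8 and H2ac8 lie 175 bases apart and are transcribed away from each other, an arrangement found within 1000 bases for 12 pairs of an H2A and an H2B gene. Pairs with both genes tested did not always have like values. For H2ac6 and H2bc4, 250 bases apart, the log2 fold changes were -0.70 (SE 0.420) and -0.74 (SE 0.236), although H2ac6 was at a mean of 0.327 FPKM and H2bc4 at 14.7 FPKM. H2ac20 and H2bc21 had -0.76 (SE 1.04) and -0.14 (SE 0.144), and H2ac25 and H2bc26 had -0.18 (SE 0.128) and 1.13 (SE 0.609). The differences within pairs were not tested.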

How the data were processed

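Per the labels' protocols, hippocampal RNA was poly(A) selected, made into dUTP-marked libraries and sequenced as pairs of 150 bases. Per the submitters' processing notes, the build was GRCm39 and the tools named are HISAT2 2.2.1, StringTie 2.1.6, cutadapt 1.9, edgeR and DESeq2, with no role given, and the strand setting of the counting is not given in the sources used here. Per the file headers, each gene has an estimated count and an FPKM value in each library. The deposited counts are whole numbers, so rounding changed 0 values. No pair of libraries agreed within sampling noise (chi-square per gene of 24.8 to 91.4). The members and lists were chosen with earlier results of these data known.

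edgeR 4.0.16 in R 4.3.3 was fitted on all genes (filterByExpr, TMM factors, quasi-likelihood test, Benjamini-Hochberg adjustment at 0.05, no covariates). Intervals are at 95%, and each SE is the fold change divided by the root of its F value. Clustered genes are H2ac, H2bc, H3c, H4c and H1f1 to H1f6 names on chromosomes 13, 3, 11 or 6, and other members are variants. Values are given for each variant tested, the 14 clustered genes with the highest mean FPKM, and the genes with the smallest p of each class and list. Transcript sequences were matched by Ensembl ID (83 of 83 members) and promoters by gene ID. The fit was also run on simulated counts, where it recovered only part of the changes put in, so a gene not called may still differ. Alternatives were RLE factors, other count filters, a replicate block, DESeq2 1.42.0, counts divided by 4, each library left out, limma 3.58.1 on log2(FPKM + 1) or log2(FPKM + 0.1), and, added after seeing the data, a term for Y-linked counts, the 4 libraries without them, CPM for the overlap of groups, and members without overlap or protein-coding only. The labels do not say whether each library is 1 animal, so p-values speak only to library-to-library spread, which may be technical. Members share sequence: 25 of 32 tested clustered genes have 150-base runs that also occur in another gene, and 9 of them for over 50% of their runs.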

Additional observations from a re-analysis of the deposited data

How the results depend on the processing

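The number of members called was 0 under all 17 alternatives, of which DESeq2 gave some members no adjusted p. The median log2 fold change of the clustered genes was negative in all of them, at -0.92 to -0.45 with 1 library left out (without control replicates 2 and 3, in that order), -0.59 with the replicate block, -0.34 and -0.61 in limma on log2(FPKM + 1) and log2(FPKM + 0.1), and -0.11 in limma on log2(FPKM + 1) with no filter, a scale that pulls low genes towards 0. It was -0.73 with a term for Y-linked counts and -0.60 without members that overlap each other. The variant median stayed between -0.08 and 0.01, and was -0.05 without H2ax and H2aj. The summed clustered FPKM had a log2 ratio of -0.45, which was -0.57 to -0.34 with 1 library left out. Clustered genes with no overlap between groups, 10 in all, numbered 10 to 22 with 1 library left out, the latter without control replicate 2. Clustered genes at an unadjusted edgeR p under 0.05 were 9 of 32 in the main fit, beside 1296 of all 20946 genes. Without control replicate 3 they were 4 of 33, beside 925 of 21693 genes. With the replicate block they were 7 of 32, beside 1048 of 20946. A term for Y-linked counts left 1 of 32, beside 989 of 20946. Over all genes, edgeR's 0 calls (1296 at an unadjusted p under 0.05) were 74 in DESeq2, 1 with a mean of at least 1 FPKM, 1 with counts divided by 4, 1 with the Y-linked term and 0 to 6 with 1 library left out (6 without control replicate 1). Same-numbered libraries did not deviate together (correlations -0.0117, -0.0523 and -0.0994), so the labels' numbers were not taken as pairs, and the replicate block changed no call. Of the 28 named members, 12 changed sign under at least 1 alternative (H1f0, H2ax, H1f10, H2aj, H2az2, Macroh2a1, Macroh2a2, H3f3c, H3f3aos, H1f2, H2ac18 and H4c8). With 1 library left out, log2 fold changes ran from -0.88 to -0.08 for H1f2, from -0.27 to -0.06 for H2ac25, from -1.54 to -0.26 for H3f4 and from -1.13 to -0.47 for H4c14. Genes under about 1 FPKM rest on few counts, and fold changes there have wide intervals.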
